A study of Mus musculus with 6 samples.

Results

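The molecular circadian clock was followed through 10 of its core genes in RNA-seq libraries made from cartilage of the knee joint, taken from mice on postnatal day 6. The genes were chosen by name and not by a rule on their values, though earlier results of these data were known. The set was the activators *Arntl* and *Clock*, the repressors *Per1*, *Per2*, *Per3*, *Cry1* and *Cry2*, the nuclear receptors *Nr1d1* and *Nr1d2*, and the output factor *Dbp*. They are 10 of the 55487 genes in the deposited count table, and all 10 were among the 17175 genes that passed the filter on low counts. The study asked what hemoglobin does in chondrocytes, and it compared 3 wild-type (WT) libraries with 3 libraries from mice in which the β-globin gene *Hbb* was conditionally deleted in chondrocytes (*Hbb*-cKO). In the study, floxed *Hbb* alleles on a C57BL/6J background were deleted with *Prx1-Cre* in mesenchymal cells and chondrocytes, or with *Col2a1-CreERT2* in chondrocytes. The latter, a tamoxifen-inducible recombinase under the type II collagen promoter, gave the mice that the paper names *Hbb*-cKO. For these libraries, the Cre line used and the Cre and tamoxifen status of the WT mice are not stated in the paper or the labels. Nor are the number of mice per library and the hour at which cartilage was taken.

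The clock is a loop of transcription that turns over about once a day in almost every cell. The ARNTL (BMAL1) and CLOCK proteins pair and bind E-box sequences to switch on the *Per* and *Cry* genes, whose proteins return to the nucleus and block that pair. In a second loop the same pair drives *Nr1d1* and *Nr1d2*, which encode REV-ERB repressors of *Arntl*, and *Dbp*, which activates genes with D-box sequences. Cartilage has such a clock of its own, and the levels of many of these transcripts depend on the hour at which the tissue is taken.

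Library totals were 16544800 to 17475496 counts for WT and 17405688 to 20969914 for *Hbb*-cKO. *Hbb-bs*, an adult β-globin gene of the targeted locus, was at 6390, 5020 and 2850 CPM (counts scaled to a common library size) in the WT libraries and at 1610, 2260 and 2010 in the *Hbb*-cKO libraries. WT was above *Hbb*-cKO in every library, but the change did not pass the edgeR test (log2 fold change −1.28, adjusted p = 0.218), while DESeq2 called it (adjusted p = 0.00168). The erythroid genes *Hba-a1*, *Hba-a2* and *Alas2*, which were not targeted, had log2 fold changes of −1.31, −1.43 and −1.60 and were likewise called by DESeq2 (adjusted p = 0.0133, 0.0101 and 9.45e-05) and not by edgeR (0.306, 0.321 and 0.184). The drop of *Hbb-bs* therefore does not by itself check the deletion in chondrocytes. All listed chondrocyte markers were detected in every library, and their summed level was 31800 to 40300 CPM in WT and 16500 to 54800 CPM in *Hbb*-cKO. Muscle genes were also abundant, with sums of 30000 to 48400 CPM in WT and 24200 to 33700 CPM in *Hbb*-cKO, and how much muscle was taken with the cartilage was not tested. In such bulk samples, fewer cells of a type and less RNA per cell cannot be told apart. WT 2 and WT 3 were each the highest or the lowest of the 6 libraries more often than any other library, WT 3 being highest in 24.0% and lowest in 21.8% of all tested genes. Counts from 4 Y-linked genes were 0 in WT 1 and WT 2 and between 1010 and 2907 in WT 3 and the *Hbb*-cKO libraries, so male tissue was detected in 1 of 3 WT and 3 of 3 *Hbb*-cKO libraries.

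Every core clock gene was expressed in every library. To compare levels between genes, CPM were divided by the length of each gene's merged exons in kilobases. On this scale the REV-ERBα gene *Nr1d1* stood first in WT at 25.8 ± 2.7 CPM per kb (mean ± s.e.m., n = 3). It was followed by *Per1* (19.0 ± 4.9), *Cry2* (14.4 ± 0.565), *Dbp* (12.3 ± 3.22) and *Nr1d2* (10.5 ± 0.77), and the ranges of neighbours in this upper part of the order overlapped. *Cry1* was lower at 7.66 ± 0.69, below all 3 values of *Nr1d2*, and *Per2* (4.67 ± 0.538) and *Per3* (4.14 ± 0.304) were lower again, without separation from each other. The activators were last, *Clock* at 2.26 ± 0.381 and *Arntl* at 1.91 ± 0.153, with overlapping ranges. In *Hbb*-cKO, *Nr1d1* again stood first, at 17.3 ± 0.293 CPM per kb, and there it lay above every value of the next gene, *Cry2* (12.9 ± 0.448). *Arntl* (1.72 ± 0.121) and *Clock* (1.5 ± 0.433) were again the lowest pair. *Per1* stood in the fourth place, at 11.6 ± 1.04, though its range overlapped those of *Dbp* and *Nr1d2* beside it.

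**Figure D1:**
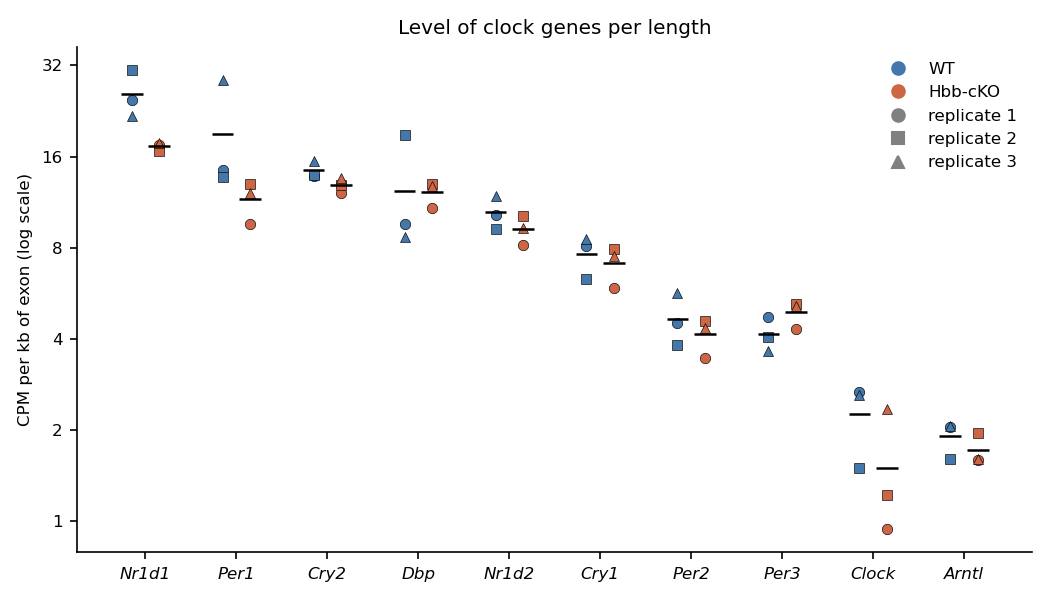
Level of each core clock gene in CPM per kilobase of merged exon (log axis), with 1 point per library for WT and *Hbb*-cKO and a line for the mean of each genotype. *Nr1d1* is highest in both genotypes, and *Arntl* and *Clock* are lowest.

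The loops are wired through short elements in the promoters. Promoter stretches of *Per1* and *Nr1d1* are shown because these were the core genes with an unadjusted p under 0.05, that of *Cry1* because it holds both of their elements, and those of *Per3* and *Arntl* because they hold other kinds. Windows from 250 bases before to 50 bases after the transcription start were taken from RefSeq (GRCm38.p6), which gave a window for 9 of the 10 genes, and both strands were searched. A gene was counted if any of its windows held the motif, and some genes had several windows. The percentages are per window, so the counts of genes and these percentages are not on the same scale. The E-box was spelled CACGTG. It occurred in the windows of *Cry1* and *Per1*, against 7.15% of all 32851 windows of the same length. The E-prime box, spelled CACGTT, occurred in *Cry1*, *Cry2* and *Nr1d1*, against 4.68% of all windows. *Per3* alone of the 9 genes held the D-box, spelled TTANGTAA and found in 2.32% of all windows. *Arntl* alone held the element that REV-ERB and ROR receptors bind, spelled TAGGTCA and found in 2.61%. The cAMP response element, spelled TGACGTCA, was in no window of the 9 genes and in 1.79% of all windows. No motif is contained in another. In the following stretches, written 5′ to 3′ on the strand of the gene, capitals mark these matches, which are matches of letters and not measured binding sites. Positions are counted from the start site.
*Per1*, chr11:69098726-69098845, plus strand, bases −223 to −104, in an intron of the longer GENCODE model of the gene: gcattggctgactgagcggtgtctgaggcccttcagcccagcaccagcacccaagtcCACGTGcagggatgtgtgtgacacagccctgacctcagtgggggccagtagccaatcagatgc
*Cry1*, chr10:85185062-85185181, minus strand, bases −127 to −8, upstream of the gene but for 3 bases of its first GENCODE exon: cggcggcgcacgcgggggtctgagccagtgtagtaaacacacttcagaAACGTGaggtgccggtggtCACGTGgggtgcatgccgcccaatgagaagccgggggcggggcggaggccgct
*Nr1d1*, chr11:98775378-98775497, minus strand, bases −120 to −1, upstream of the gene: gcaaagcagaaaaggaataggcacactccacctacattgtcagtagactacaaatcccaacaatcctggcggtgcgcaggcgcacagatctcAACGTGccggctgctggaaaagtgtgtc
*Per3*, chr4:151044784-151044903, minus strand, bases −238 to −119, upstream of *Per3* in an intron of the neighbouring gene *Camta1*: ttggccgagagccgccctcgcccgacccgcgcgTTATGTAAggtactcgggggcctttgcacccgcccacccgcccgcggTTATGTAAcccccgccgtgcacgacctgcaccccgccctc
*Arntl*, chr7:113207529-113207558, plus strand, bases 19 to 48, in the first exon: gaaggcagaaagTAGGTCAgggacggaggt

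Across the whole set, no core clock gene was called changed between the genotypes at an adjusted p under 0.05. The edgeR quasi-likelihood test called 0 of 10, against 18 of all 17175 genes (0.105%), and DESeq2 also called 0 of 10, against 1.16% of the genes it gave an adjusted p. At an unadjusted p under 0.05, 2 of 10 passed in edgeR, *Per1* and *Nr1d1*, against 10.1% of all genes. The point estimates were below 0 for 9 genes and above 0 for 1, *Per3*, with a median log2 fold change of −0.17 against −0.01 over all genes tested. In 3 genes, *Per1*, *Cry2* and *Nr1d1*, every *Hbb*-cKO library lay below every WT library. Of all genes, 8.96% were separated in this direction and 17.7% in either direction. With 3 libraries against 3, the two-sided exact permutation test of a single gene cannot give a p below 0.1.

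**Figure D2:**
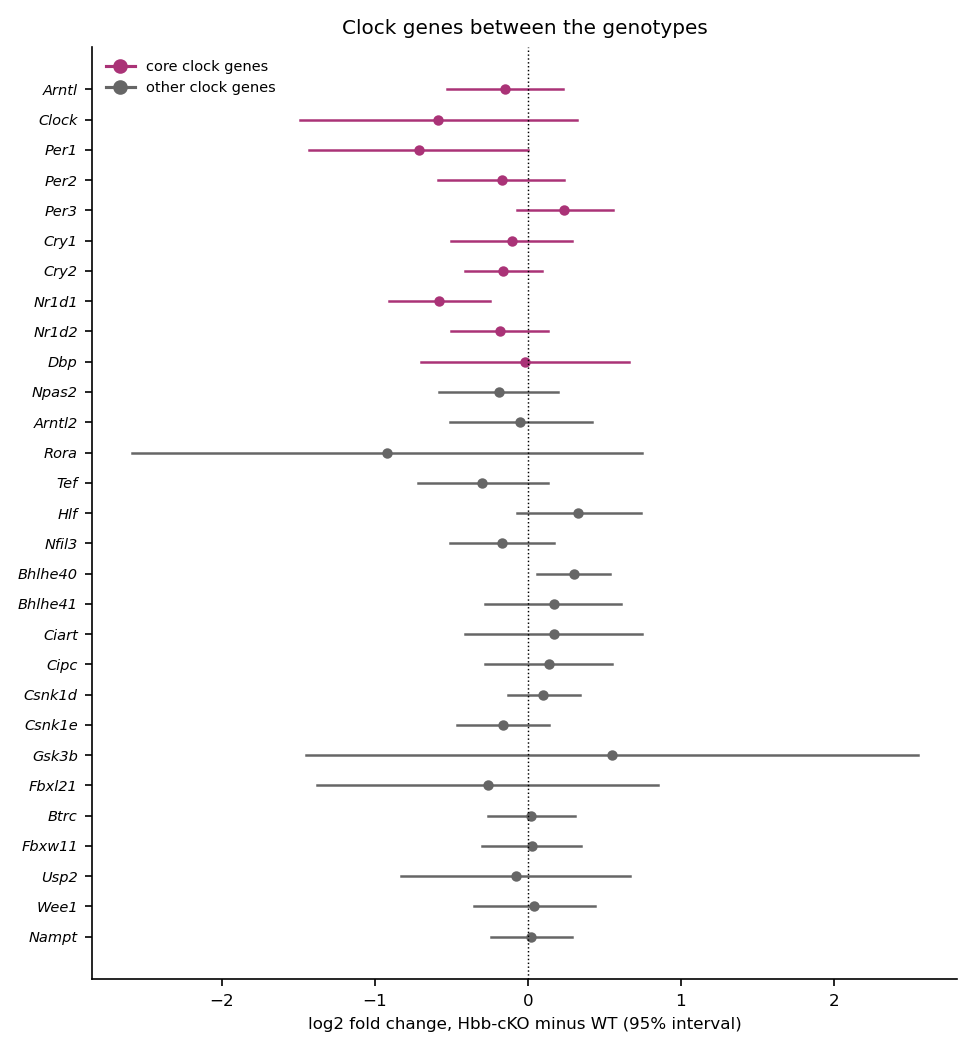
Log2 fold change, *Hbb*-cKO over WT, of the core clock genes and of other clock genes, with 95% confidence intervals from the edgeR fit. Among the core genes, the interval of *Nr1d1* lies below 0 (−0.91 to −0.25) and that of *Per1* reaches to about 0, and no gene shown had an adjusted p under 0.05.

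*Nr1d1* encodes REV-ERBα, a heme-binding nuclear receptor that represses *Arntl*. The gene (ENSMUSG00000020889) lies on the minus strand at chr11:98767932-98775333. Its level was 75.8, 95.2 and 67.2 CPM in the WT libraries and 53.9, 51.5 and 54.4 CPM in the *Hbb*-cKO libraries. The groups did not overlap, the 3 *Hbb*-cKO libraries lay close together, and WT 2 was the highest. The means were 79.4 ± 8.30 and 53.3 ± 0.9 CPM (mean ± s.e.m., n = 3 each), so *Hbb*-cKO stood at 67.1% of WT. The log2 fold change was −0.58 with an s.e. of 0.14. The unadjusted p of 0.00385 ranked 267 of 17175, and the adjusted p was 0.247 (edgeR), while DESeq2 gave 0.0998. Without WT 2 the log2 fold change was −0.41 (adjusted p = 0.254), and without WT 3 it was −0.68 (adjusted p = 0.118).

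*Nr1d1* shares 263 exon bases, 8.5% of its exon length, with *Thra*, the thyroid hormone receptor α gene on the opposite strand. Whether the counting used strand is not stated, so reads from the shared bases cannot be assigned to either gene. *Thra* lay at 202 to 237 CPM in the 6 libraries and did not pass the test (log2 fold change −0.10, adjusted p = 0.810). The ratio of *Nr1d1* to *Thra* was 0.359, 0.401 and 0.305 in WT and 0.267, 0.243 and 0.261 in *Hbb*-cKO. As *Thra* varied little, this ratio largely repeats the values of *Nr1d1*. It does not show to which gene reads from the shared bases belong.

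*Nr1d2* encodes REV-ERBβ, which binds the same element, and maps to chr14:18204054-18239127 on the minus strand (ENSMUSG00000021775). It lay at 55.8, 50 and 64.3 CPM in WT and at 44.2, 55.2 and 50.3 CPM in *Hbb*-cKO. The groups overlapped, and the log2 fold change was −0.18 (95% confidence interval −0.50 to 0.13, adjusted p = 0.705, edgeR). The ratio of *Nr1d1* to *Nr1d2* was 1.36, 1.91 and 1.04 in WT and 1.22, 0.932 and 1.08 in *Hbb*-cKO, and these ranges overlapped. A difference between the receptors in their response was therefore not resolved.

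*Per1*, a repressor gene that also responds directly to hormonal and growth signals, had the lowest point estimate of the core genes. It lies on the plus strand at chr11:69095217-69109960 (ENSMUSG00000020893). The level was 81.3, 77.1 and 162 CPM in WT and 53.8, 73.2 and 68.3 CPM in *Hbb*-cKO. The groups did not overlap, but WT 3 was far above the other libraries, and WT 2 lay only slightly above *Hbb*-cKO 2. The means were 107 ± 27.6 and 65.1 ± 5.83 CPM, and the log2 fold change was −0.71 with an s.e. of 0.30 (unadjusted p = 0.0493, adjusted p = 0.494, edgeR). Without WT 3 it was −0.28 (adjusted p = 0.5). *Per1* was also the one member that any alternative called: with the Y-linked level as a covariate it reached −1.26 (adjusted p = 0.0271). Y-linked counts were 0 in WT 1 and WT 2. Within WT this covariate therefore varied only through WT 3, the library with the high *Per1*.

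*Per2* and *Per3* encode the other period repressors. *Per2* (ENSMUSG00000055866, chr1:91415982-91459324, minus strand) was at 26.4, 22.4 and 33.2 CPM in WT and at 20.3, 27.0 and 25.5 CPM in *Hbb*-cKO. These ranges overlapped, with WT 3 again the highest library, and the log2 fold change was −0.17 (95% confidence interval −0.59 to 0.24, adjusted p = 0.808, edgeR). *Per3* (ENSMUSG00000028957, chr4:151003652-151044665, minus strand) was at 45.2, 38.9 and 35.2 CPM in WT and at 41.4, 50.2 and 49.5 CPM in *Hbb*-cKO. It was the one core gene with a higher mean in *Hbb*-cKO, at 118% of WT, and WT 3 was here the lowest library. Its log2 fold change of 0.24 did not pass the test (95% confidence interval −0.07 to 0.56, adjusted p = 0.590, edgeR). Within a library, *Per1* stood at 3.08, 3.44 and 4.87 times *Per2* in WT and at 2.64, 2.71 and 2.68 times in *Hbb*-cKO. The ratio did not overlap between the genotypes, the 3 *Hbb*-cKO values were nearly equal, and WT 3 was the highest. *Per3* stood at 1.71, 1.73 and 1.06 times *Per2* in WT and at 2.04, 1.86 and 1.94 times in *Hbb*-cKO, with WT 3 the lowest. Differences between the genotypes in these ratios were not tested.

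*Cry1* and *Cry2* encode the cryptochromes, which join the PER proteins in the repressor complex. *Cry1* (ENSMUSG00000020038, chr10:85131700-85185064, minus strand) was at 27.1, 21 and 28.6 CPM in WT and at 19.7, 26.5 and 25.2 CPM in *Hbb*-cKO. The groups overlapped, and the log2 fold change was −0.10 (95% confidence interval −0.50 to 0.29, adjusted p = 0.891, edgeR). *Cry2* (ENSMUSG00000068742, chr2:92403646-92434043, minus strand) was at 87.2, 87.9 and 98.2 CPM in WT and at 76.3, 81.7 and 86.1 CPM in *Hbb*-cKO. All *Hbb*-cKO values were below all WT values, yet the highest of them, 86.1, was close to the lowest WT value, 87.2. *Cry2* had the smallest spread among the core genes, an SD of 0.09 within genotypes on the log2 scale, and its log2 fold change was −0.16 (95% confidence interval −0.41 to 0.09, adjusted p = 0.664, edgeR). The ratio of *Cry2* to *Cry1* was 3.21, 4.18 and 3.44 in the WT libraries, against 3.88, 3.09 and 3.42 after deletion. Of the exon bases of *Cry2*, 4.7% are shared with an opposite-strand gene, D930015M05Rik.

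*Arntl* encodes BMAL1, the activator without which the loop stops. The gene (ENSMUSG00000055116) lies on the plus strand at chr7:113207465-113314126, on the same chromosome as the deleted locus and 9.38 Mb from *Hbb-bs*. Its level was 15.4, 12 and 15.6 CPM in WT and 11.9, 14.7 and 12.1 CPM in *Hbb*-cKO. Each genotype held both higher and lower libraries, and the groups overlapped. The log2 fold change was −0.15, with a 95% confidence interval of −0.53 to 0.23 (adjusted p = 0.817, edgeR), so a decrease by as much as 0.53 could not be told from none at this number of libraries.

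*Clock* encodes the partner of BMAL1 (ENSMUSG00000029238, chr5:76209868-76304792, minus strand). It was at 36.7, 20.6 and 35.8 CPM in WT and at 12.9, 16.7 and 32.3 CPM in *Hbb*-cKO. *Hbb*-cKO 3 lay among the WT values and far above the other *Hbb*-cKO libraries. The log2 fold change was −0.59 (95% confidence interval −1.49 to 0.32, adjusted p = 0.663, edgeR), and it was −1.06 without *Hbb*-cKO 3 and −0.34 without *Hbb*-cKO 1. The SD of *Clock* within genotypes was 0.58 on the log2 scale, larger than that of 90.7% of all tested genes. *Clock* stood at 2.39, 1.71 and 2.30 times *Arntl* in WT and at 1.08, 1.13 and 2.68 times in *Hbb*-cKO, so the activators did not keep a common proportion.

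*Dbp* encodes a D-box activator and is a direct target of the BMAL1 and CLOCK pair. It lies on the plus strand at chr7:45705088-45710203 (ENSMUSG00000059824). Its level was 28.7, 56.1 and 26.0 CPM in WT and 32.4, 38.8 and 38.2 CPM in *Hbb*-cKO. The *Hbb*-cKO libraries lay between WT 2, the highest, and the remaining WT libraries. The means were 36.9 ± 9.62 and 36.5 ± 2.05 CPM and the log2 fold change was −0.02 (95% confidence interval −0.70 to 0.66, adjusted p = 0.992, edgeR). Without WT 2 it was 0.43. The interval is wide, so nearly equal means do not show that *Dbp* was equal in the genotypes. *Dbp* shares 539 exon bases, 18.0% of its exon length, with *Sphk2* on the opposite strand, which was at 30 to 42.6 CPM.

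**Figure D3:**
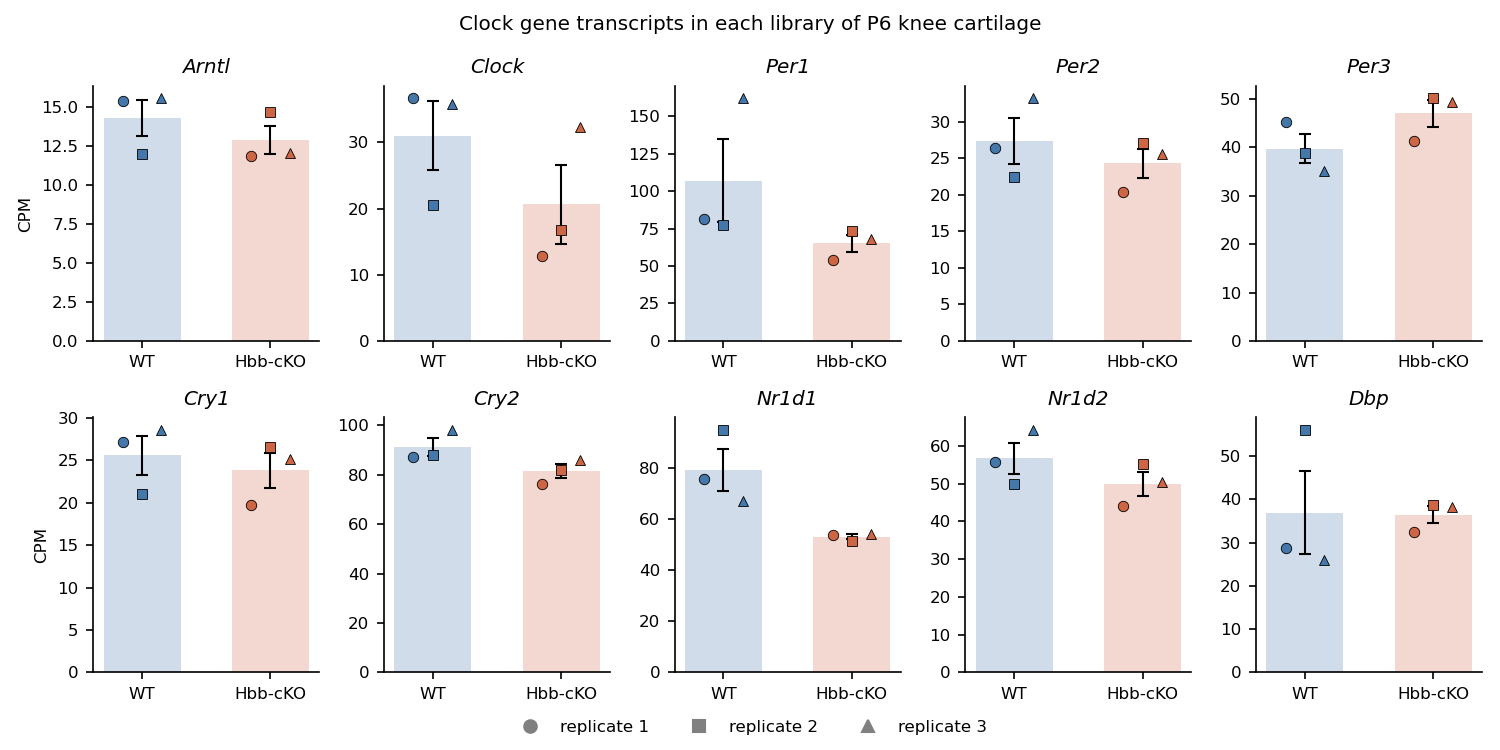
CPM of each core clock gene in the 6 libraries, with a symbol per library (circle, square and triangle for replicates 1, 2 and 3), a bar for the mean of each genotype and error bars for the s.e.m. *Per1* is pulled up by WT 3 (162 CPM) and *Dbp* by WT 2 (56.1 CPM), whereas the *Hbb*-cKO values of *Nr1d1* lie between 51.5 and 54.4 CPM.

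Within genotypes, the median SD of the core clock genes was 0.21 on the log2 scale, against 0.23 for all tested genes of any level. Single core genes ranged widely around it, from 0.09 for *Cry2* to 0.58 for *Clock*. *Per1* (0.45) and *Dbp* (0.44) had a larger SD than 83.6% and 82.5% of all tested genes. The libraries nevertheless differed in their clock profiles. WT 3 was the highest of the 6 libraries for 6 of the 10 genes, against 24.0% of all genes, and *Hbb*-cKO 1 was the lowest for 7 of 10, against 15.7%. WT 2 had another profile, with the highest *Dbp* and *Nr1d1* and with *Arntl*, *Cry1* and *Per2* below the mean of the 6 libraries. The ratio of *Dbp* to *Arntl*, genes known to peak at different hours, was 1.87, 4.66 and 1.67 in WT and 2.71, 2.64 and 3.16 in *Hbb*-cKO. WT 2 was thus apart from the other WT libraries by this ratio, and the *Hbb*-cKO libraries lay between them. Gene length moved with the same library. The 4290 tested genes with the longest exons were set against the 4292 with the shortest, and the median deviation of the long genes from the mean of the 6 libraries was −0.35 relative to the short genes in WT 2 (log2 scale), against −0.04 to 0.19 in the other libraries. *Dbp* and *Nr1d1* have the shortest exons of the core genes, at 2993 and 3077 bases, but lie outside the short set, which ends at 2193 bases. *Cry1*, the next in length at 3340 bases, was 0.22 below its mean in WT 2 (log2 scale). The part of exon length and of the hour of collection in these profiles was not tested.

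Levels were then set against *Arntl* over the 6 libraries. *Nr1d2* rose with it most closely, with a Pearson's r of 0.87 (permutation p = 0.00139, adjusted over the 9 genes to 0.0125) and a Spearman's rho of 1.00 (p = 0.00278, adjusted 0.0125, exact). Without WT 1 and WT 3, the libraries farthest from the median of *Arntl*, r was 0.79. *Cry1* had r = 0.85 (exact permutation p = 0.0181, adjusted 0.0542) and rho = 1.00 (p = 0.00278, adjusted 0.0125), and *Per2* had r = 0.81 (p = 0.0139, adjusted 0.0542) and rho = 0.94 (p = 0.0167, adjusted 0.05). Their r without the same libraries was 0.71 and 0.72. These are repressors of the loop, and like *Arntl* they were above their mean in WT 1, WT 3 and *Hbb*-cKO 2 and below it in WT 2 and *Hbb*-cKO 1. *Per1* had r = 0.68 (exact permutation p = 0.0319, adjusted 0.0719), which fell to 0.38 without WT 1 and WT 3. *Clock*, *Cry2*, *Nr1d1* and *Per3* had r between −0.09 and 0.52, and *Dbp* was the most negative at −0.64 (rho = −0.60), with exact permutation p from 0.161 to 0.931 for these 5. With the mean of each genotype subtracted, r was 0.85 for *Nr1d2*, 0.85 for *Cry1* and 0.78 for *Per2*, and *Nr1d1* turned to −0.83. Subtraction ties the values within a genotype to each other, so free pairings give no exact p for these r. High r before subtraction were not rare in these libraries: 1.94% of all tested genes had an r with *Arntl* at or above that of *Nr1d2*, and 4.16% at or above that of *Per2*.

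**Figure D4:**
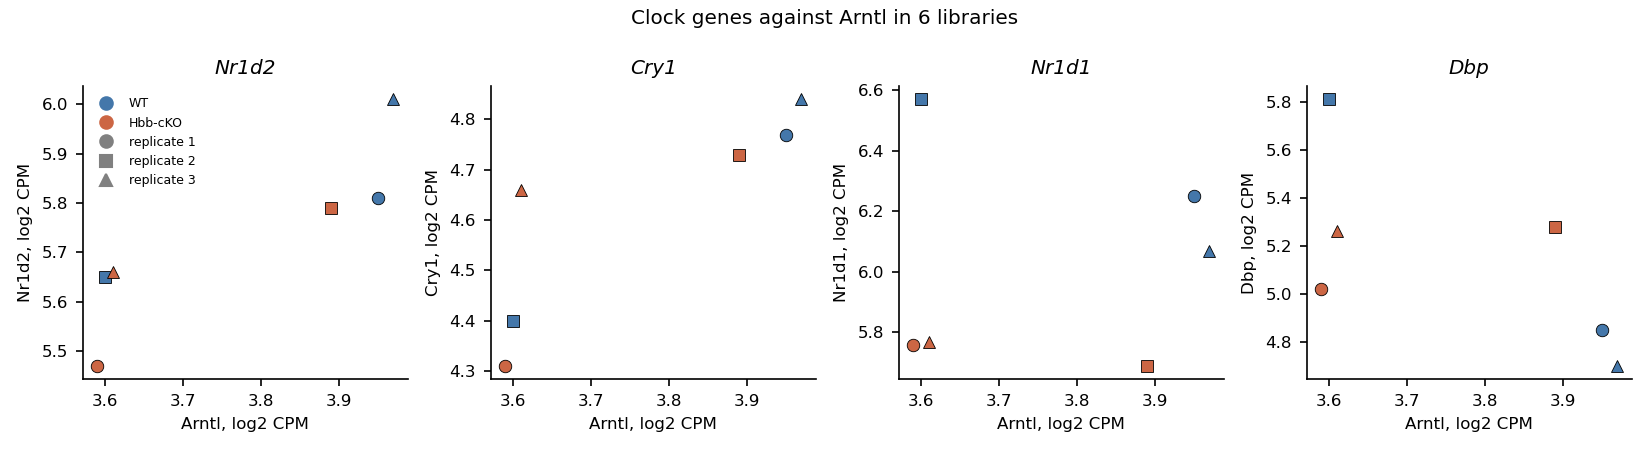
Log2 CPM of *Nr1d2*, *Cry1*, *Nr1d1* and *Dbp* (y axes) against log2 CPM of *Arntl* (x axes), with a symbol per library, coloured by genotype. *Nr1d2* (r = 0.87) and *Cry1* (r = 0.85) climb with *Arntl*, while *Dbp* (r = −0.64) is highest in WT 2, where *Arntl* is low.

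Among genes outside the clock and marker lists with a mean of at least 3 log2 CPM, those most like *Arntl* over the 6 libraries were *Cdk12* (r = 0.995), *Trim24* (r = 0.989) and *Zbtb11* (r = 0.988). For *Dbp* they were *Hspb11* (r = 0.985), *Sap18b* (r = 0.983) and *Cope* (r = 0.982). Of the 10631 genes compared, 126 had r over 0.9 with *Arntl* and 188 with *Dbp*. With 6 libraries and this many genes, these likenesses are a description only.

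The wider clock machinery held 22 further genes, of which 21 were tested. Neither edgeR nor DESeq2 called any, and 1 of 21 had an unadjusted p under 0.05 in edgeR, against 10.1% of all genes. Their log2 fold changes were positive for 12 and negative for 9, from −0.92 to 0.55, with a median of 0.02. The gene with the low p was *Bhlhe40* (DEC1), an E-box repressor, at 76.7, 80.4 and 72.9 CPM in WT and at 94.8, 99.5 and 88.1 CPM in *Hbb*-cKO. All *Hbb*-cKO values lay above all WT values, and the log2 fold change was 0.30 with an s.e. of 0.10 (unadjusted p = 0.0219, adjusted p = 0.386, edgeR). The other E-box repressors tested, *Bhlhe41*, *Ciart* and *Cipc*, also had positive point estimates, of 0.17, 0.17 and 0.14, and none passed the test.

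Among the activators of *Arntl*, *Rora* was at 35.3, 13.8 and 40.0 CPM in WT and at 9.89, 31.1 and 6.13 CPM in *Hbb*-cKO. The spread within each genotype was larger than the difference between them (log2 fold change −0.92, 95% confidence interval −2.59 to 0.75, adjusted p = 0.716, edgeR). *Rorb*, a related receptor, stayed between 0.283 and 0.851 CPM and was not tested.

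The paralogs of the activators, *Npas2* and *Arntl2*, had log2 fold changes of −0.19 and −0.05. Of the factors that act at D-boxes, *Tef* and *Nfil3* had −0.30 and −0.17 and *Hlf* had 0.33, so members of one family pointed in opposite directions without passing the test. The kinases and ubiquitin ligases that set the turnover of PER and CRY proteins had a median of 0.03. *Csnk1d* and *Csnk1e*, the casein kinases that phosphorylate PER, were at 0.10 and −0.16, and *Fbxl21*, a ligase subunit that acts on CRY, was at −0.26. *Gsk3b* ranged from 11.4 to 65.3 CPM within *Hbb*-cKO alone, and its estimate of 0.55 had an interval from −1.45 to 2.55. The clock outputs *Wee1* and *Nampt* were at 0.04 and 0.02.

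Genes that answer signals known to reset peripheral clocks were examined beside the core genes. Of 9 tested genes that respond to glucocorticoids, a hormone signal that induces *Per1*, none was called in edgeR and 2 had an unadjusted p under 0.05, against 10.1% of all genes. Their median log2 fold change was −0.60, with 8 of 9 estimates below 0. WT 3 was the highest library for 8 of the 9 genes, against 24.0% of all genes. *Zbtb16* was at 6.95, 2.43 and 30.7 CPM in WT and at 2.1, 2.41 and 3.21 CPM in *Hbb*-cKO (log2 fold change −2.37, adjusted p = 0.455, edgeR). *Klf9* was at 42.8, 34.7 and 93.9 CPM in WT and at 29.9, 38.0 and 33.3 CPM in *Hbb*-cKO. *Cdkn1a*, a cell cycle inhibitor, was at 167, 147 and 237 CPM in WT and at 132, 129 and 121 CPM in *Hbb*-cKO (log2 fold change −0.53, adjusted p = 0.368, edgeR). *Fkbp5*, chosen after its values were seen, was at 75.1 CPM in WT 3 and between 24.7 and 27.5 CPM in the other libraries. The high *Per1* of WT 3 thus stood beside a high level of these genes, of muscle genes (48400 CPM against 24200 to 33900 in the other libraries) and of Y-linked genes against the other WT libraries. Covariate fits gave different sizes for the *Per1* difference. The log2 fold change of *Per1* was −0.27 (adjusted p = 0.382, edgeR) with the mean level of the glucocorticoid list as a covariate, an alternative added after seeing the data, −0.36 (adjusted p = 0.789) with that of the muscle list, and −1.26 (adjusted p = 0.0271) with the Y-linked level. *Nr1d1* was −0.71 (adjusted p = 0.0527), −0.65 and −0.35 in the same fits.

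**Figure D5:**
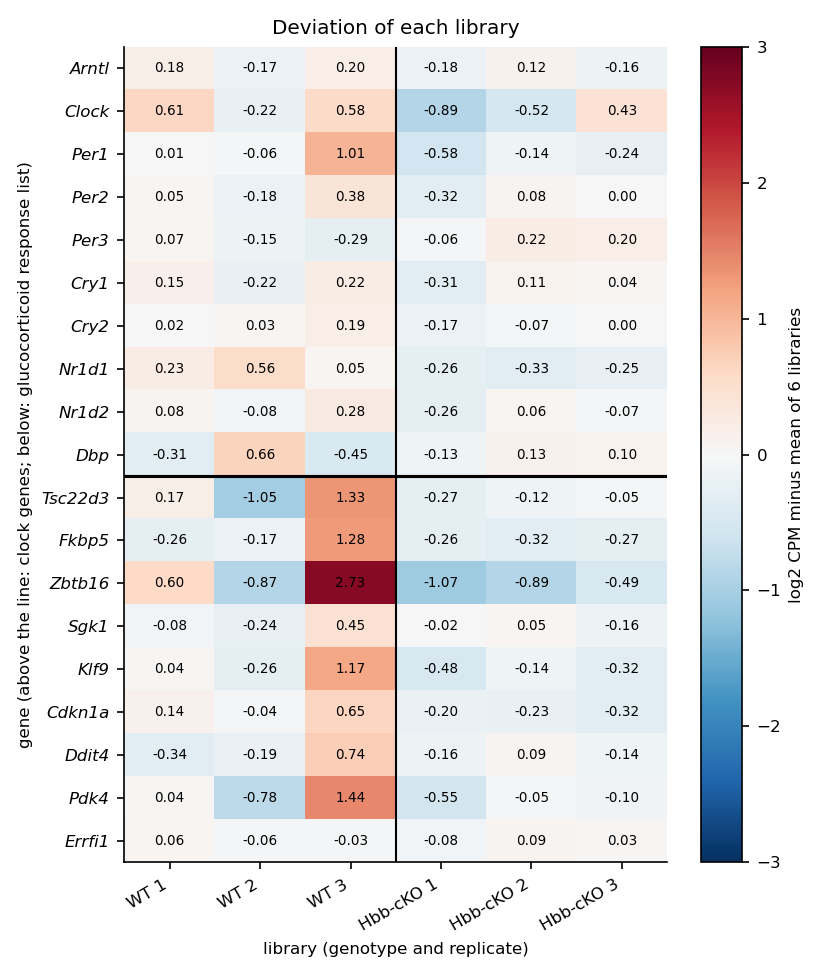
Log2 CPM of each library minus the mean of the 6 libraries, for the core clock genes (above the line) and the genes that respond to glucocorticoids (below), in red where higher and blue where lower. WT 3 stands out for *Per1* (1.01) and for *Zbtb16* (2.73), and *Nr1d1* is below 0 in all 3 *Hbb*-cKO libraries.

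Immediate early genes, which growth factors and serum induce together with *Per1*, had mostly positive estimates. Of 11 tested, 1 was called in edgeR and 3 in DESeq2, against 0.105% and 1.16% of all genes. Estimates were positive for 10 of the 11, against 8165 of all 17175 genes. For 7, every *Hbb*-cKO library lay above every WT library, against 8.70% of all genes. *Egr1* was at 60.0, 58.3 and 58.3 CPM in WT and at 115, 114 and 117 CPM in *Hbb*-cKO. It rose by 0.97 on the log2 scale (adjusted p = 0.0191, edgeR), with almost no spread in either genotype. The estimate stayed between 0.96 and 0.99 when 1 library was left out, but the call was lost without WT 1 (adjusted p = 0.162, edgeR), *Hbb*-cKO 1 (0.0578), *Hbb*-cKO 2 (0.0685) or *Hbb*-cKO 3 (0.144), and also with the muscle covariate (0.0544). *Egr3* and *Fosb* had log2 fold changes of 0.93 and 0.94 and were called by DESeq2 (adjusted p = 0.0162 and 0.0291) but not by edgeR (0.180 and 0.276). Markers of other cell types also stood higher in *Hbb*-cKO. The summed level of 8 neutrophil genes was 36.6, 25.4 and 17.3 CPM in WT and 122, 26.6 and 102 CPM in *Hbb*-cKO, with 8 of 8 estimates positive (median 1.79). None of the 8 was called in edgeR and 2 were called in DESeq2, against 0.105% and 1.16% of all genes. The summed level of 3 endothelial genes was 403, 345 and 330 CPM in WT and 489, 452 and 433 CPM in *Hbb*-cKO, with none called by either tool. The part of these cells in the immediate early genes was not tested. *Per1* had its lower values in *Hbb*-cKO, a difference that edgeR did not call (log2 fold change −0.71, adjusted p = 0.494). Without WT 3 the log2 fold change of *Per1* was −0.28. How *Per1* relates to the immediate early genes was not tested.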

How the data were processed

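The authors sequenced RNA of knee joint cartilage (3 WT and 3 *Hbb*-cKO libraries, Illumina TruSeq RNA kit) and deposited 1 table of raw read counts per gene. The submitters' processing notes name fastp 0.19.5, HISAT2 2.1.0, StringTie and edgeR. Which annotation and genome build they used, and whether strand was used in counting, is not stated. Positions in the table equalled GENCODE M21 on GRCm38 for 99.4% of the genes compared. Groups were taken from the labels. The study calls its cartilage RNA-seq samples biologically independent, but the number of mice behind each library is not stated, so p-values measure the spread between these libraries.

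The core genes and the lists were chosen with earlier results of these data known. Every core gene and tested clock gene could be named, with the 3 genes of lowest p from each of the 2 signal lists and the 3 genes most like *Arntl* and *Dbp*. Counts were filtered (filterByExpr, minimum count 10, minimum total 15), scaled by TMM and tested with edgeR 4.0.16 (quasi-likelihood F-test, robust, Benjamini-Hochberg over all tested genes) in R 4.3.3. CPM used TMM-scaled library sizes. DESeq2 1.42.0, other scalings and filters, left-out libraries, covariates and a replicate block were alternatives. Values of 2 tested clock genes are not reported here, though they are in the counts. The tests were also run on counts simulated from means and dispersions fitted to these data. Library pairs differed by more than sampling noise (chi-square per gene of 20.23 or more). *Arntl*, the core gene with the fewest counts, had 198 to 294 counts per library, and the libraries totalled 16544800 to 20969914.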

Additional observations from a re-analysis of the deposited data

How the results depend on the processing

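No core clock gene was called under any setting except with the Y-linked level as a covariate, which called 1 (*Per1*), and none of the 21 other clock genes was called under any setting. The number of all genes called, 18, moved to 236 with DESeq2, 60 without a low-count filter, 4 with the replicate block, 56 with the Y-linked covariate, 48 with the glucocorticoid covariate (added after seeing the data), 41 at an adjusted p of 0.1, and between 1 and 39 when 1 library was left out (1 without WT 1, 39 without WT 3, 6 without *Hbb*-cKO 2, 2 without *Hbb*-cKO 3). Over all tested genes, same-numbered libraries did not deviate together (r of −0.03, −0.11 and −0.03). What the numbers stand for is not stated, and a shared day or litter acting on a few genes was not tested. The block changed no call of a core or other clock gene but ended that of *Egr1* (adjusted p = 0.17, edgeR). Of the fold changes, *Dbp* turned positive with DESeq2 (0.01), the block (0.06), the Y-linked covariate (0.43), without WT 2 (0.43) and without *Hbb*-cKO 1 (0.07), *Cry1* without *Hbb*-cKO 1 (0.02, range over left-out libraries −0.21 to 0.02) and with the glucocorticoid covariate (0.04), and *Per2* with that covariate (0.03). *Nr1d1* stayed negative, from −0.71 to −0.35. Of the correlations with *Arntl*, subtracting genotype means turned *Per3* to 0.29 and *Nr1d1* to −0.83. Without the 2 farthest libraries *Clock* was −0.22, *Per3* 0.62, *Cry2* −0.11 and *Nr1d1* −0.40. With 1 library left out, *Nr1d1* ranged from −0.18 to 0.65 and *Per3* from −0.33 to 0.47. The cause of these shifts was not tested. With 3 libraries per genotype and no hour of collection, changes of the size of most intervals above could not be resolved.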
